A study of Mus musculus with 13 samples.

Results

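Neuroendocrine cells release peptides and amines on demand. Here 9 genes used as markers of that state were followed through RNA-seq of prostate tumours and epididymal fat from the same mouse model. They are the granins Chga, Chgb, Scg2 and Scg3, the vesicle protein gene Syp, the neuronal microtubule regulator Stmn2, the RNA-binding protein gene Celf3, and the transcription factor genes Insm1 and Mycn. Members were the rows of the deposited tables with these symbols, and all 9 were found once in each table, out of 24421 entries in the tumour table and 23360 in the fat table. They had been chosen with their levels in these libraries known, so which library holds them is described here without a test.

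The tumours arise in TRAMP mice, in which a probasin promoter drives a viral T antigen in prostate epithelium. All groups came from TRAMP+ C57BL/6 mice aged 30 to 35 weeks on regular diet. The knockout (KO) mice were TRAMP+;p62aP2KO, which lack p62, the protein of Sqstm1, in cells where the aP2 promoter is active. That promoter is best known from adipocytes and is also active in some macrophages. The wild-type (WT) mice were TRAMP+;p62f/f, carrying the floxed allele undeleted. Tumours gave 3 KO and 4 WT libraries, and epididymal fat gave 3 KO and 3 WT libraries. The labels do not say whether libraries came from separate mice, so the spread between them may be technical. Libraries are named below by tissue, labelled genotype and number, for example tumour WT 1.

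Tumour libraries held 17810397 to 32475051 counts, and the depth of the fat libraries, deposited as FPKM (fragments per kilobase of transcript, scaled to library size), is unknown. Sqstm1 went against the label in the libraries numbered 2 of both tissues. In fat it had 4.53, 54.5 and 2.58 FPKM in KO 1 to 3, against 73.6, 1.77 and 84.3 FPKM in WT 1 to 3. In tumours it had 8.84, 186 and 20.4 CPM (counts scaled to an equal library total) in KO 1 to 3, against 182, 5.72, 132 and 161 CPM in WT 1 to 4. Directions below therefore follow the labels as deposited, for libraries labelled KO and WT. The fat marker Adipoq, encoding adiponectin, had 1632 to 1919 FPKM in the fat libraries labelled KO and 2078 to 2982 FPKM in those labelled WT. The luminal keratin gene Krt8 had 427 to 492 CPM in tumours labelled KO and 195 to 600.4 CPM in those labelled WT. Other tumour libraries stood apart for genes of neighbouring organs: seminal vesicle Svs4 had 27124 CPM in tumour KO 1 and epididymal Crisp1 had 2927 CPM in tumour WT 4.

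Neuroendocrine cells are scattered thinly through normal prostate epithelium. Tumours with this phenotype are known both from men with advanced prostate cancer and from TRAMP mice. Granins pack peptides into dense-core granules, Syp (synaptophysin) sits in small synaptic-like vesicles, and Insm1 is a zinc-finger factor of endocrine and neuronal progenitors. The repressor REST holds many of these genes off outside neurons and endocrine cells, and the splicing factor Srrm4 is known to counter REST.

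On the GRCm38 build, all 9 members are protein-coding genes of the GENCODE M21 annotation. The granin genes lie on chromosome 12 (Chga, 102554969 to 102565028, plus strand), chromosome 2 (Chgb, 132781278 to 132795079, plus strand), chromosome 1 (Scg2, 79434669 to 79440120, minus strand) and chromosome 9 (Scg3, 75643189 to 75684056, minus strand). Syp is on chromosome X from 7638471 to 7653256 (plus strand). Stmn2 (8509360 to 8561606) and Celf3 (94478295 to 94492198) are both on the plus strand of chromosome 3. Insm1 is on chromosome 2 from 146221921 to 146225020 (plus strand), and Mycn on chromosome 12 from 12936093 to 12941914 (minus strand). Exons of Syp overlap Gm14703, and exons of Celf3 overlap Riiad1, on the opposite strand. Whether counting used strand is not given in the sources used here, so reads of these pairs may not be told apart.

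Promoter windows are shown for the 4 members whose window held a cyclic AMP response element or its core, because this element is well known from granin promoters. RefSeq windows on GRCm38.p6, which run from 250 bases before to 50 bases after the annotated start, were found for 7 of the 9 members (Celf3 has 7 such windows), the exceptions being Insm1 and Stmn2. Capitals mark TGACGTCA, its core TGACGT, and CAGCACC and GGACAG, the left and right parts of the REST element, on either strand, and each line gives the 250 bases before the start, 5′ to 3′ on the gene's strand. The first is chr12:102554691-102554940 (plus), the second chr2:132781392-132781641 (plus), the third chr1:79440027-79440276 (minus) and the fourth chr3:94484077-94484326 (plus).
Chga: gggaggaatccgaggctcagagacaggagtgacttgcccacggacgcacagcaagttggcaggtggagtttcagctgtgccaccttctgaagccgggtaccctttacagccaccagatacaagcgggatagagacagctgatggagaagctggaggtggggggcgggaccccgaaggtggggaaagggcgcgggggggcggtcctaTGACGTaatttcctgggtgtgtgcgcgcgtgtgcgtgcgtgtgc
Chgb: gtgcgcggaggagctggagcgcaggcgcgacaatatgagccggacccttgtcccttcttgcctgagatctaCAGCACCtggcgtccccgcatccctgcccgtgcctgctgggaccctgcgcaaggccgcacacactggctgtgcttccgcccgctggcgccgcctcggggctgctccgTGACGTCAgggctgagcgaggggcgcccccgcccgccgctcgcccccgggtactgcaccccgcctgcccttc
Scg2: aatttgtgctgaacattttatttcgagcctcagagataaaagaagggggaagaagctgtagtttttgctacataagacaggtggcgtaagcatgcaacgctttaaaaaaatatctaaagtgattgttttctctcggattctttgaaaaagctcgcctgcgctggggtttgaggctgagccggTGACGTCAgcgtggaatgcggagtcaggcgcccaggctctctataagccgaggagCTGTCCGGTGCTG
Celf3: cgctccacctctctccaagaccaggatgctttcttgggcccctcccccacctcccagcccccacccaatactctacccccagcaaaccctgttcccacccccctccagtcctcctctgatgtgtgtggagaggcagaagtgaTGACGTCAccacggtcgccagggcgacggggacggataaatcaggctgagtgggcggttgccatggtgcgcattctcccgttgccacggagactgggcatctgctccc

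The full element TGACGTCA was present in Chgb, Scg2 and Celf3 windows, and in 1.79% of all 32851 windows searched on both strands. In Chgb it began 72 bases before the start, in Scg2 68 bases before it and in the Celf3 window shown 108 bases before it, and 3 of the 7 Celf3 windows held it. Chga had only the core TGACGT, 44 bases before the start, a core that lies within the full element and was found in 7.51% of windows. CAGCACC was in the windows of Chgb and Scg2 (7.14% of all windows), and GGACAG in those of Scg2 and Celf3 (22.2%). In Scg2 these parts sat next to each other on the opposite strand, from 13 bases before the start up to the start. CAGCACC followed by NN and GGACAG, the REST element with its usual spacing, matched 0 of the 7 members and 0.0365% of windows. These matches describe letters in a window and say nothing about binding.

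All 9 members had their highest tumour value in 1 library, tumour WT 1, and 8 of the 9 were there more than 10-fold above the next highest library. Among the 14956 genes with a mean of at least 1 CPM, 29.5% were highest in tumour WT 1 and 3.16% were at least 10-fold above the next library there. The fold of 10 was picked after the values were seen. Chga, Chgb, Insm1, Celf3, Scg2 and Scg3 reached a mean of 1 CPM only through tumour WT 1. The same holds for many genes of the lists below, among them Neurod1, Pou3f2, Srrm4, Myt1, Scg5, Snap25 and Elavl4. Counts of members or list genes highest there are therefore a description. In bulk tissue, more cells of a type and more RNA per cell cannot be told apart.

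Chromogranin A, the product of Chga and the classical serum marker of neuroendocrine tumours, was the lowest granin transcript per length in tumour WT 1. Chga had 0.894, 1.94 and 0.930 CPM in tumours KO 1 to 3, against 53.5, 0.848, 0.168 and 0.558 CPM in tumours WT 1 to 4. Tumour WT 1 thus stood 27.6-fold above the next library, KO 2, which held 63 counts. The groups overlapped only through WT 1, since the other 3 WT tumours lay below every KO tumour. That order is within counting error for KO 1 and WT 2, which held 18 and 20 counts.

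Chgb, whose protein is a second major granule matrix component, differed more between libraries. It had 0.745, 0.154 and 1.20 CPM in tumours KO 1 to 3, against 290.4, 0.297, 0.337 and 0.812 CPM in tumours WT 1 to 4. The gap from tumour WT 1 to the next library, KO 3 with 27 counts, was 243-fold. Among the remaining 6 libraries, KO and WT values interleaved.

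Scg2, the secretogranin that is cleaved to secretoneurin, had nearly the same profile. Its values were 1.29, 0.0924 and 0.974 CPM in tumours KO 1 to 3, against 282, 0.170, 0.337 and 0.913 CPM in tumours WT 1 to 4. Only 3 to 26 counts were found in the libraries other than WT 1, which held 5027. Scg3, which tethers granins to the granule membrane, had 0.248, 0.0924 and 0.443 CPM in tumours KO 1 to 3, against 108, 0.339, 0 and 0.203 CPM in tumours WT 1 to 4. The 0 in tumour WT 3 allows up to 0.168 CPM (3 counts), and outside WT 1 no library held more than 10 counts of Scg3. Intervals and limits of this kind cover counting error only.

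Syp was the member with the steadiest low level. It had 2.33, 2.09 and 2.21 CPM in tumours KO 1 to 3, against 138 CPM in tumour WT 1 and 1.19, 0.898 and 2.23 CPM in tumours WT 2 to 4. The gap of WT 1 to the next library was 59.3-fold, and every library held at least 16 counts.

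Stmn2, a stathmin that acts on microtubules in growing axons, was the exception in size. It had 10.6, 6.77 and 2.66 CPM in tumours KO 1 to 3, against 39.1, 0.678, 1.18 and 1.98 CPM in tumours WT 1 to 4. Tumour WT 1 was 3.68-fold above tumour KO 1, and all 3 KO tumours lay above WT 2, WT 3 and WT 4. Tumours KO 1 and KO 2 held 214 and 220 counts. The closest libraries in this order were KO 3 with 60 counts and WT 4 with 39. Celf3, a neuronal splicing regulator of the CELF family, had 0.348, 0.0924 and 0 CPM in tumours KO 1 to 3, against 61.7, 0.636, 0 and 1.93 CPM in tumours WT 1 to 4. The value of 0 allows up to 0.133 CPM in KO 3 and 0.168 CPM in WT 3.

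Insm1 had 0.199, 0.0924 and 0.664 CPM in tumours KO 1 to 3, against 154, 0.551, 0.112 and 0 CPM in tumours WT 1 to 4. Here tumour WT 1 was 232-fold above the next library, KO 3 with 15 counts, and the 0 in WT 4 allows up to 0.152 CPM. Mycn, the MYC family member linked to neuroendocrine prostate cancer, had 0.0993, 0.647 and 1.02 CPM in tumours KO 1 to 3, against 101, 0.466, 2.13 and 1.83 CPM in tumours WT 1 to 4. Its gap was 47.5-fold over tumour WT 3. After tumour WT 1, the next 2 libraries in order of Mycn were both labelled WT, as for Celf3.

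**Figure D1:**
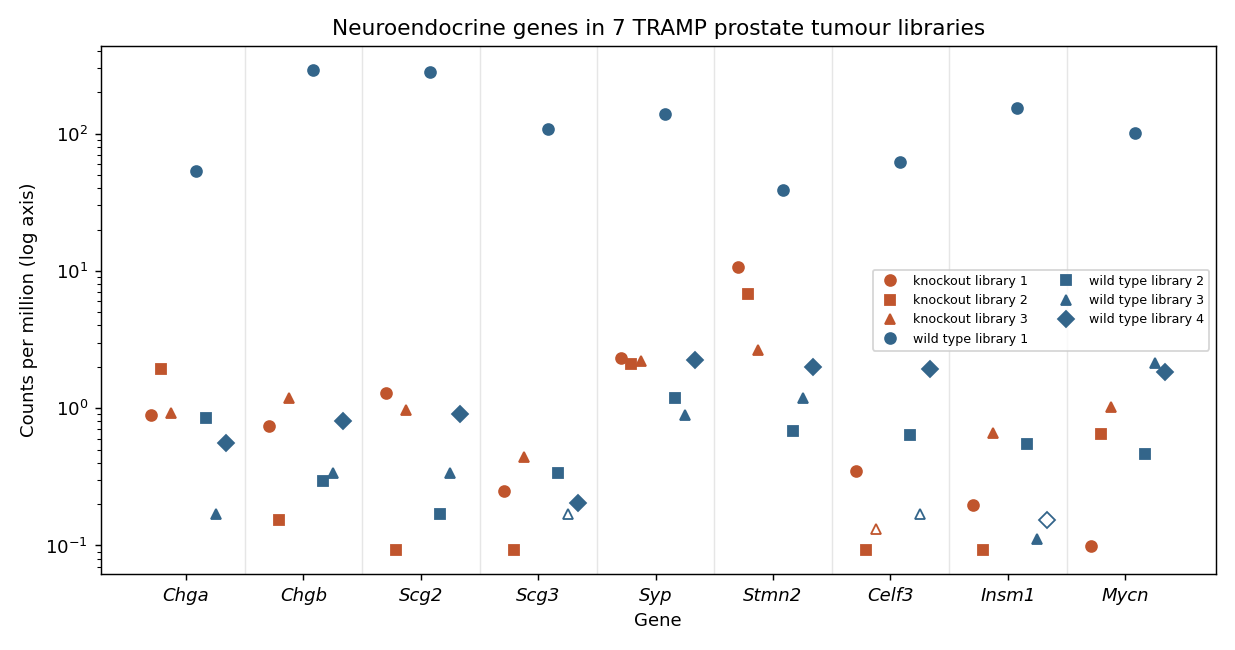
CPM of the 9 members in each of the 7 tumour libraries on a log axis, KO libraries left of WT libraries within each gene, and open symbols marking a count of 0 drawn at the CPM of 3 counts. The circle of tumour WT 1 is the highest point for every gene, from 39.1 CPM for Stmn2 to 290.4 CPM for Chgb, and the other 6 libraries lie at or below 10.6 CPM.

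Per kilobase of annotated exon, the order of levels within tumour WT 1 was Scg2 (112 CPM per kilobase), Chgb (106), Insm1 (49.7), Scg3 (39.5), Mycn (30.7), Syp (26.6), Chga (19.4), Celf3 (11.3) and Stmn2 (6.98). This order comes from 1 library, so no spread can be set against it. On the same scale 98.9% of annotated genes in tumour WT 1 lay below Scg2, 98.8% below Chgb, 87.9% below Chga and 68.8% below Stmn2. In tumour KO 1, Stmn2 had the highest such rank of any member outside WT 1, with 54.0% of genes below it.

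Across the 7 tumours, centred log2 CPM profiles of the 8 members that passed the count filter were compared by their mean absolute difference, as a description. Chgb and Scg2 were nearest to each other, at 0.31 log2 units, and Chga was nearest to Syp at 0.52. Stmn2 and Celf3 were the farthest apart, at 2.39. The 10 other genes nearest to the members' mean profile were Gdap1 (0.20), Fam57b, Rtn1, Slc29a4, Tubb3, Tubb4a, Fbxl16, Scn3a, Pcdhgc4 and Sez6l2 (0.45). All of these profiles share the peak in tumour WT 1, which sets most of the likeness.

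Other genes of the neuroendocrine and neuronal programme marked the same tumour library, by lists chosen with earlier results of these data known. All 18 genes of the neuronal cytoskeleton, adhesion and RNA-binding list were highest in tumour WT 1, and 15 of them at least 10-fold over the next library. Elavl4, a neuronal RNA-binding protein gene, had 0.0924 to 1.14 CPM in KO tumours, against 302 CPM in tumour WT 1 and 0.168 to 0.509 CPM in the other WT tumours. For Uchl1, a neuronal deubiquitinase gene, values were 3.51 to 15.2 CPM in KO tumours, 231 CPM in WT 1 and 4.45 to 9.38 CPM in the other WT tumours. Of 14 synaptic vesicle and exocytosis genes at a mean of at least 1 CPM, 13 were highest in WT 1. Among them Snap25, a fusion protein gene, had 0.0616 to 1.89 CPM in KO tumours, 147 CPM in WT 1 and 0 to 1.27 CPM in the other WT tumours.

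Granule and prohormone genes were split. In the dense-core granule list, 8 of 9 genes at a mean of at least 1 CPM were highest in tumour WT 1 but only 3 by 10-fold or more. The chaperone gene Scg5 had 0.0616 to 0.596 CPM in KO tumours, 50.6 CPM in WT 1 and 0 to 0.609 CPM in the other WT tumours, and the convertase gene Pcsk2 reached 52.8 CPM in WT 1. The other convertase gene, Pcsk1, had only 0.112 CPM there. Of 4 peptide hormone and amine synthesis genes at that level (Calca, Npy, Ddc and Tph1), 1 was highest in tumour WT 1, the amine enzyme gene Ddc at 33.8 CPM.

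Among regulators, 10 of the 15 at that level were highest in tumour WT 1, 8 by 10-fold or more. The neural factor gene Pou3f2 had 0 to 0.0308 CPM in KO tumours, 36.0 CPM in WT 1 and 0 to 0.0507 CPM in the other WT tumours. Myt1 reached 106 CPM in WT 1, Srrm4 38.4 CPM and Neurod1 9.08 CPM. Foxa2, an established marker of TRAMP neuroendocrine lesions, had at most 0.443 CPM in any of the 7 tumours, and 0.336 CPM in WT 1. Rest was lowest of the 7 libraries in tumour WT 1, at 12.7 CPM, with 14.3 to 31.2 CPM in KO tumours and 21.1 to 27.3 CPM in the other WT tumours. The list of Rest and its cofactors went the other way, with 4 of 6 genes (Rcor1, Sin3a, Kdm1a and Hdac2) highest in tumour WT 1 and a sum of 371 to 425 CPM in KO tumours, 713 CPM in WT 1 and 464 to 494 CPM in the other WT tumours.

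Markers of other cell types were read beside this peak. Of the Schwann cell and nerve sheath list, 0 of 7 genes at a mean of at least 1 CPM were highest in tumour WT 1, and the summed level was 172 to 292 CPM in KO tumours and 94.9 to 252 CPM in WT tumours, with 145 CPM in WT 1. The sympathetic list summed to 25.8 to 34.0 CPM in KO tumours and 10.7 to 27.1 CPM in tumours WT 2 to 4, against 83.8 CPM in WT 1, of which 70.5 CPM were Prph, a peripheral neuron filament gene and the 1 gene of 3 that was highest there. Of its defining genes, Th, tyrosine hydroxylase, was at 0.280 CPM in WT 1 and Dbh at 1.34 CPM. Dbh had 0 to 1.39 CPM in KO tumours and 0 to 0.507 CPM in tumours WT 2 to 4. The epididymis and seminal vesicle list summed to 8.22 to 46203 CPM in KO tumours and 17.3 to 3459 CPM in WT tumours, with 3459 CPM in WT 1. The luminal list summed to 3565 to 9418 CPM in KO tumours and 4168 to 17548 CPM in WT tumours, and 1 of its 13 genes was highest in WT 1. That library held 4205 CPM of the androgen target Pbsn. All 12 cell cycle genes were highest in tumour WT 1, although 0 of them by 10-fold. Mki67, the proliferation marker, had 61.9, 105 and 16.7 CPM in tumours KO 1 to 3, against 1127, 379, 204 and 351 CPM in tumours WT 1 to 4. The part of any of these in the members' values was not tested.

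**Figure D2:**
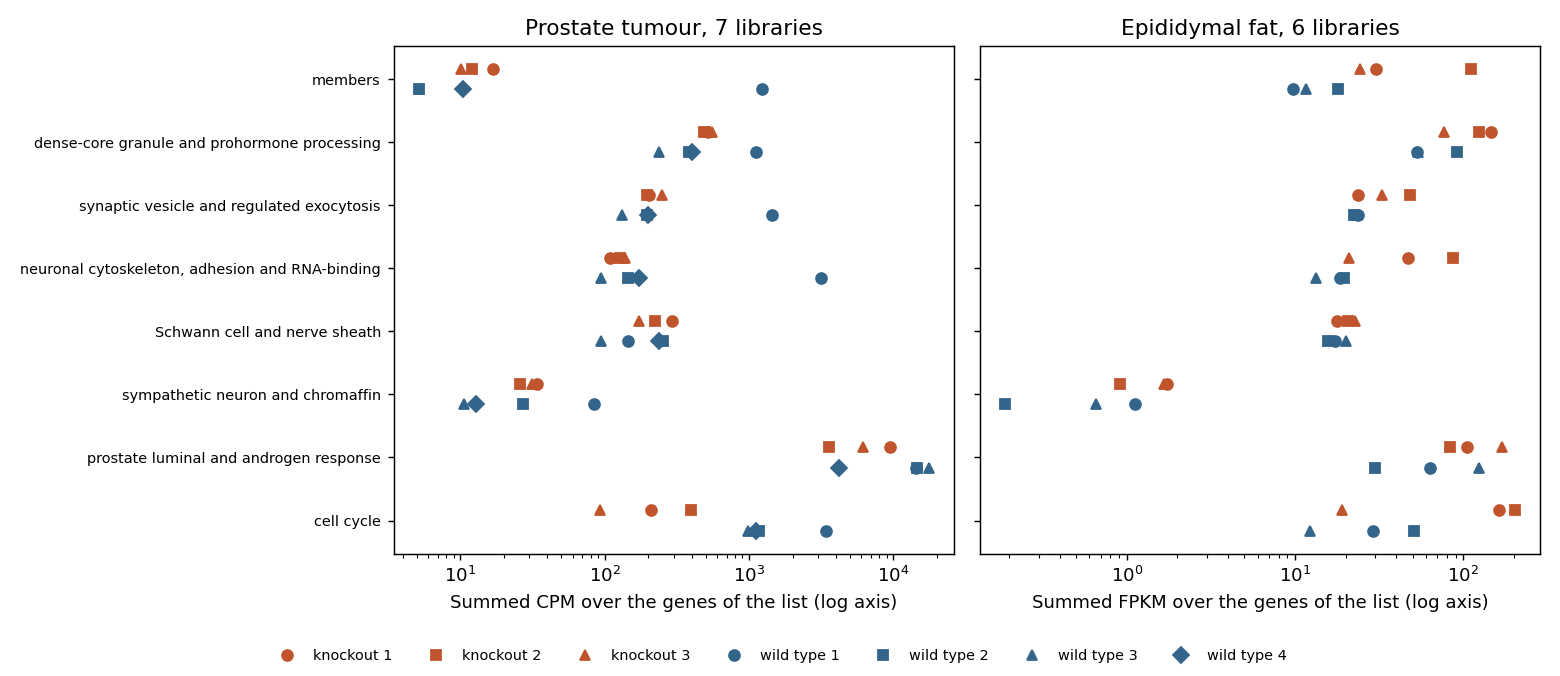
Summed CPM in tumours (left) and summed FPKM in fat (right) over the genes of 8 lists, on log axes, 1 symbol per library with the KO libraries above the WT libraries. The members sum to 1228 CPM in tumour WT 1 and to 5.17 to 16.8 CPM in the other tumours, and to 110.4 FPKM in fat KO 2, while the Schwann cell list shows no such library.

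With all 7 tumours, the KO against WT contrast called 0 of the 8 tested members at an adjusted p under 0.05 (edgeR quasi-likelihood, Benjamini-Hochberg), against a background of 0% of 15117 genes, of which 1879 (12.4%) had an unadjusted p under 0.05. Scg3 was not tested because too few libraries reached the count filter. It held 1931 counts in tumour WT 1 and at most 10 in any other tumour library. At an unadjusted p under 0.05, 4 of the 8 were lower in KO tumours (Chgb, Insm1, Mycn and Celf3) and 0 higher, where 6.26% of all genes were lower and 6.17% higher, but the members were chosen on these libraries and nothing is read from that count. The median log2 fold change was -5.97 over the 8 members and -0.07 over all genes tested. Mycn, for example, averaged 0.588 ± 0.462 CPM in KO tumours (SD, n = 3) and 26.4 ± 49.9 CPM in WT tumours (SD, n = 4), with a log2 fold change of -5.47 (SE 2.07, adjusted p = 0.345).

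These estimates depended on tumour WT 1. Without that library Insm1 and Celf3 no longer passed the count filter. Then 6 members were tested, 0 were called (edgeR, again 0% of 14938 genes) and the median log2 fold change was 0.60. The signs turned for Chga (1.17, SE 0.66), Chgb (0.44, SE 0.83), Syp (0.54, SE 0.48), Stmn2 (2.29, SE 0.68) and Scg2 (0.65, SE 1.01), and stayed negative for Mycn (-1.50, SE 0.92). Stmn2 then averaged 6.69 ± 3.99 CPM in KO tumours and 1.28 ± 0.656 CPM in WT tumours (SD, n = 3 each), with an edgeR adjusted p of 0.298, and was the only one of the 6 members with an unadjusted p under 0.05, where 6.27% of all genes were higher and 12.7% (1891 genes) passed in either direction. Stmn2 and Chga were the 2 members whose KO libraries all lay above the 3 remaining WT libraries, against 11.5% of all genes tested. For Chga this order is within counting error, with 18 counts in KO 1 and 20 in WT 2.

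**Figure D3:**
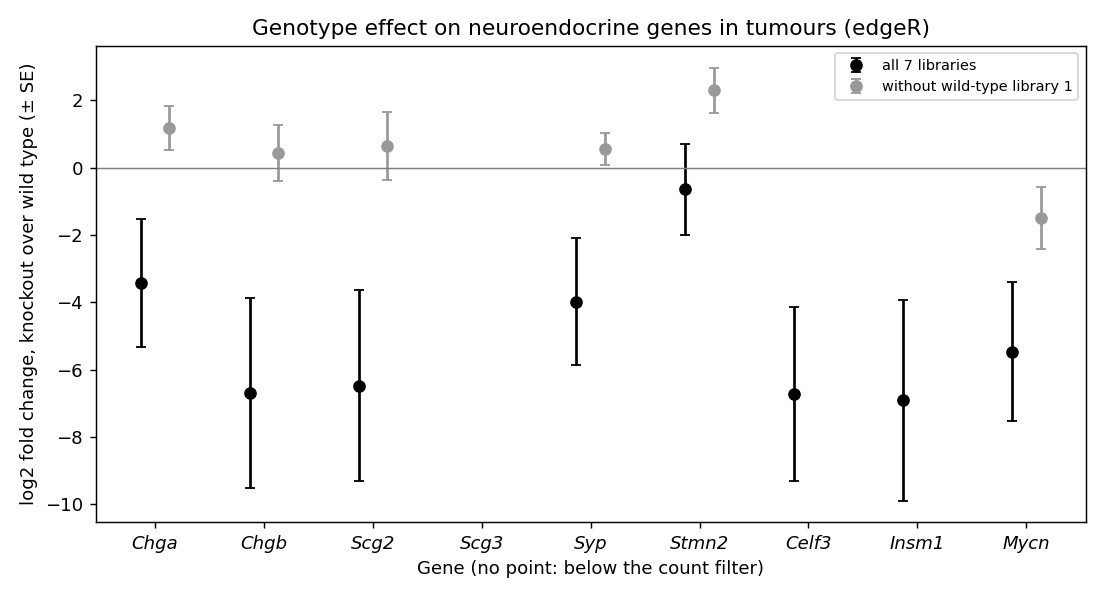
Fitted log2 fold change of KO over WT tumours with its SE, for each member, with all 7 libraries (black) and without tumour WT 1 (grey); genes without a point fell below the count filter. Of the 6 members with both points, 5 move from below 0 to above 0 when tumour WT 1 is left out, and Mycn stays below 0 at -1.50.

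The choice of tool also mattered. DESeq2 called 772 genes (5.11%), but gave no adjusted p to 7 of the 8 members, among 617 genes where single counts stood far from their group by its Cook's distance rule. Stmn2, the remaining member, was not called. With that rule off, an alternative chosen after seeing the data, DESeq2 called 863 genes (5.71%) and 2 members, Chgb (log2 fold change -6.69, adjusted p = 0.0367) and Mycn (-5.51, adjusted p = 0.0328), both lower in KO tumours. With limma voom 0 members were called and the estimates were smaller, for example -0.41 for Chga, -1.03 for Syp, -1.69 for Insm1, -2.25 for Chgb and 0.97 for Stmn2. With replicate number as a block in edgeR, which also called 0 members, Chga had -0.32, Syp -0.85, Mycn -2.45, Chgb -2.55, Scg2 -2.84, Insm1 -3.29, Celf3 -5.36 and Stmn2 0.70. In the edgeR fit without a block the biological coefficient of variation was 1.12 to 1.82 for the members, against 0.530 for all genes in common.

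Apart from Syp, the members were low in WT fat, at no more than 3.23 FPKM (Stmn2 in fat WT 1). Syp reached 13.6 FPKM in fat WT 2, above 76.9% of listed genes. The members were not low in every fat library, since Chga reached 50.6 FPKM in fat KO 2. Of the 7 members with a mean of at least 1 FPKM, 6 were highest in fat KO 2, 4 of them by 3-fold or more, a fold picked after the values were seen. Over all 13617 genes, 14.5% were highest in that library and 0.411% at least 3-fold above the next. Chgb, Insm1 and Scg3 are among those 4 members and reached the mean of 1 FPKM only through fat KO 2. The member counts are therefore a description and are not set against these shares.

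Chga had 6.74, 50.6 and 0.376 FPKM in fat KO 1 to 3, against 1.09, 0.664 and 0.954 FPKM in fat WT 1 to 3. In fat KO 2, 93.9% of listed genes lay below Chga, and fat KO 1 was the second highest. Chgb had 3.01, 26.3 and 0.167 FPKM in fat KO 1 to 3, against 0, 0.0630 and 0 FPKM in fat WT 1 to 3. Insm1 followed the same order, with 1.00, 5.17 and 0.150 FPKM in fat KO 1 to 3, against 0, 0 and 0.0631 FPKM in fat WT 1 to 3. For these 2 genes the groups did not overlap, although KO 3 lay close to the WT libraries.

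Scg3 had 0.889, 5.06 and 0.741 FPKM in fat KO 1 to 3, against 0.830, 0.721 and 0.805 FPKM in fat WT 1 to 3. Scg2, the highest member per kilobase in tumour WT 1, reached only 1.04 FPKM in fat KO 2 and 0.0775 FPKM in KO 1, and was listed at 0 in KO 3 and all 3 WT libraries. Per length, Chga and Chgb were the highest granins in fat KO 2, and Scg2 and Chgb in tumour WT 1.

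Syp behaved differently. It had 3.42, 15.9 and 4.53 FPKM in fat KO 1 to 3, against 2.98, 13.6 and 6.01 FPKM in fat WT 1 to 3, so that both libraries numbered 2 were high. Stmn2 had 13.3, 3.05 and 17.2 FPKM in fat KO 1 to 3, against 3.23, 1.41 and 1.15 FPKM in fat WT 1 to 3, and was highest in KO 3 rather than KO 2. Celf3 had 1.74, 2.95 and 1.16 FPKM in fat KO 1 to 3, against 0.939, 1.44 and 0.560 FPKM in fat WT 1 to 3. Mycn was the one member highest in a WT library, with 0, 0.348 and 0.0881 FPKM in fat KO 1 to 3, against 0.690, 0.200 and 2.01 FPKM in fat WT 1 to 3.

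**Figure D4:**
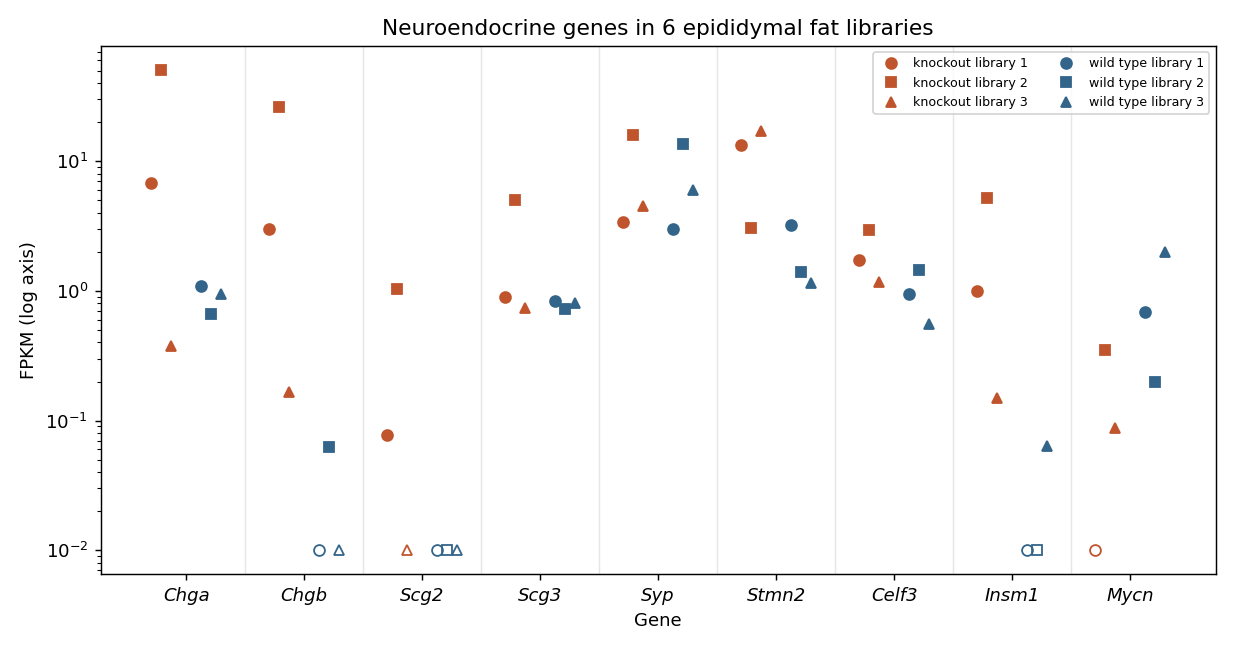
FPKM of the 9 members in each of the 6 fat libraries on a log axis, KO libraries left of WT libraries within each gene, and open symbols marking values listed at 0, drawn at 0.01. The square of fat KO 2 is highest for Chga (50.6 FPKM), Chgb, Scg2, Scg3, Syp, Celf3 and Insm1, while Stmn2 is highest in fat KO 3 and Mycn in fat WT 3.

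The KO against WT contrast in fat called 0 of the 7 tested members (limma on log2(FPKM + 1), adjusted p under 0.05), against 0.00734% of 13617 genes, which is 1 gene. Mycn and Scg2 fell below the mean of 1 FPKM required. The 7 log2 fold changes were all positive, with a median of 1.25 beside 0.01 over all genes, and fold changes on this scale understate the change of low genes. Stmn2 alone had an unadjusted p under 0.05 among the 7 members, against 6.88% of all genes that were higher in KO fat at that level. It averaged 11.2 ± 7.32 FPKM in KO fat and 1.93 ± 1.14 FPKM in WT fat (SD, n = 3 each), with a log2 fold change of 1.86 (SE 0.58, limma adjusted p = 0.233). Chgb had a log2 fold change of 2.30 (SE 1.02, adjusted p = 0.345) and Chga one of 2.11 (SE 1.14, adjusted p = 0.424) in the same limma fit. The 2 members with non-overlapping groups, Chgb and Insm1, compare with 9.87% of all genes higher without overlap in KO fat. Of the 7 members tested, 5 (Chga, Chgb, Insm1, Celf3 and Scg3) reached the required mean only through KO fat, their WT means being below 1 FPKM. Mycn, dropped by the filter, had a log2 fold change of -0.69 (SE 0.34) in the limma fit without it. The count of 2, the median and the shared positive sign are therefore given as description.

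Leaving out fat KO 2 removed Chgb, Insm1 and Scg3 from the test, since their means then fell below 1 FPKM. Of the 4 members still tested, 0 were called, against 0.0295% of 13561 genes. Chga then had a log2 fold change of 0.78 (SE 0.74), Syp turned to -0.58 (SE 0.54), and Stmn2 had 2.53 (SE 0.38, limma adjusted p = 0.0985). Stmn2 was again the only member with an unadjusted p under 0.05, against 5.81% of all genes higher in KO fat. In fat, Stmn2 in KO 1 and KO 3 lay above every WT library, while KO 2 at 3.05 FPKM was below WT 1 at 3.23 FPKM.

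Of the lists, fat KO 2 was the highest library for 6 of 7 regulators, 6 of 9 neuronal genes and 4 of 8 synaptic vesicle genes at a mean of at least 1 FPKM, but for 1 of 4 granule genes and 1 of 4 peptide and amine genes. Over all genes at that mean, 14.5% were highest there. Some listed genes, such as Sox2 and Foxa2, reached the mean only through fat KO 2. Without that library 4 regulators, 6 neuronal genes and 7 synaptic vesicle genes reached it, so these counts are a description. The granule list summed to 146, 125 and 76.6 FPKM in fat KO 1 to 3, with the highest sum in KO 1. In fat WT 1 to 3 it summed to 53.1, 91.7 and 53.5 FPKM. Most of these sums came from the list genes Cpe and Pam, so they say little about the rest of the list. Cpe had 96.1 FPKM in fat KO 1 and 35.9 FPKM in KO 2, and Pam 46.5 and 59.7 FPKM. Foxa2 and Pcsk1, which were low in tumour WT 1, had their highest fat values in KO 2, a contrast between tables that was not tested. Foxa2 had 1.20, 4.63 and 0.219 FPKM in fat KO 1 to 3, against 0, 0.0828 and 0 FPKM in fat WT 1 to 3. Pcsk1 had 1.61, 20.5 and 0.182 FPKM in fat KO 1 to 3 and was listed at 0 in all 3 WT libraries. Sox2 reached 13.6 FPKM in fat KO 2 and at most 0.0935 FPKM in the other fat libraries. Ddc, which encodes the decarboxylase of amine synthesis, had 4.54, 19.1 and 0.361 FPKM in fat KO 1 to 3, against 0.105, 0 and 1.62 FPKM in fat WT 1 to 3. Pou3f2 and Neurod1, high in tumour WT 1, had 0.106 and 0 FPKM in fat KO 2.

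**Figure D5:**
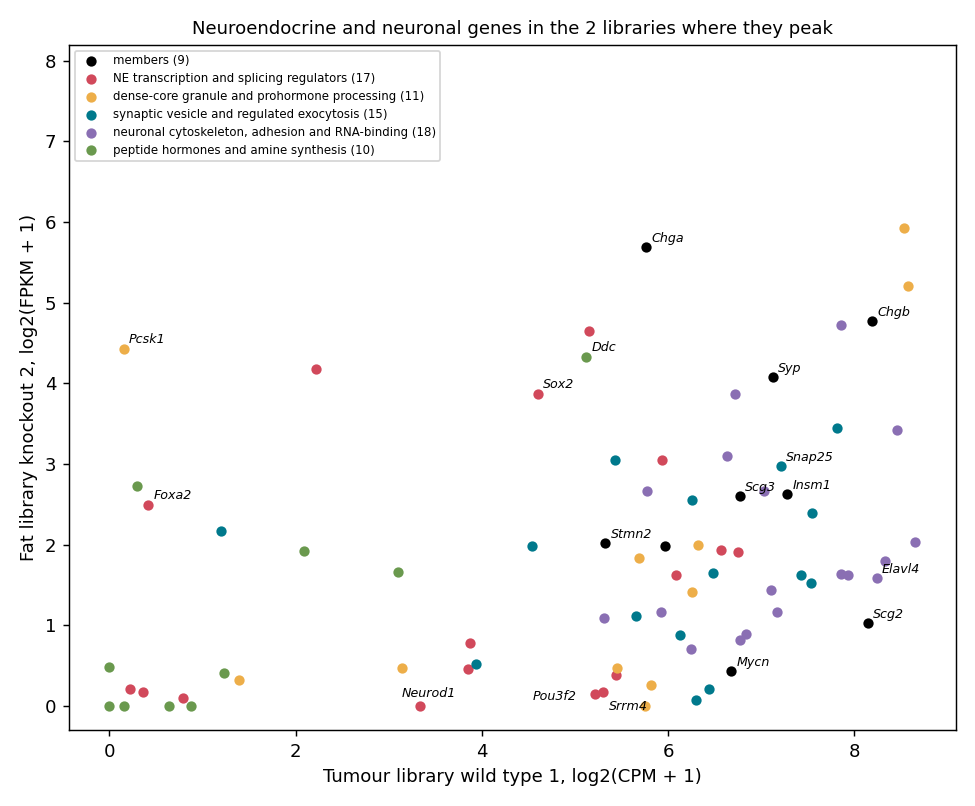
Neuroendocrine and neuronal genes by their log2(CPM + 1) in tumour WT 1 (horizontal axis) and their log2(FPKM + 1) in fat KO 2 (vertical axis), 1 point per gene, coloured by list, with the number of genes in each list in the legend. Pcsk1 and Foxa2 sit at the left, with at most 0.336 CPM in the tumour library, while Pou3f2, Srrm4 and Mycn sit at the bottom, with at most 0.348 FPKM in the fat library; the units differ between axes, so heights and widths are not compared.

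Markers of other cells in fat were read beside these values. Th and Dbh, the defining sympathetic genes, were listed at 0 in all 6 fat libraries, with the whole sympathetic list at 0.913 to 1.75 FPKM in KO fat and 0.190 to 1.12 FPKM in WT fat. The Schwann cell list summed to 17.7 to 22.8 FPKM in KO fat and 15.7 to 20.2 FPKM in WT fat. Epcam, an epithelial adhesion gene, had 11.3, 18.2 and 1.59 FPKM in fat KO 1 to 3, against 0.494, 0.343 and 38.0 FPKM in fat WT 1 to 3. The whole epithelial list summed to 13.2 to 42.1 FPKM in KO fat and 8.46 to 86.9 FPKM in WT fat, with 42.1 FPKM in KO 2 and 86.9 FPKM in WT 3. Mki67 had 50.6, 83.1 and 5.94 FPKM in fat KO 1 to 3, against 9.26, 18.0 and 2.52 FPKM in fat WT 1 to 3. Cell cycle genes summed to 163, 203 and 19.1 FPKM in fat KO 1 to 3, against 29.0, 51.1 and 12.3 FPKM in fat WT 1 to 3. The macrophage list summed to 2049 to 4747 FPKM in KO fat and 621 to 2361 FPKM in WT fat. Pbsn was listed at 0 in all 6 fat libraries. The libraries KO 1 and KO 2 were thus the highest for Chga, Chgb, Insm1, Pcsk1 and Mki67, while Epcam was highest in WT 3. The part of these cells in the members' values was not tested.

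The genotype difference in fat minus that in tumours was fitted for 6 members, 0 of which were called (limma interaction, adjusted p under 0.05), against 0% of 12390 genes. At an unadjusted p under 0.05, 0 of the 6 and 11.7% of all genes passed. The largest member estimate was for Chgb, 4.05 on the log2 scale (SE 2.28, limma adjusted p = 0.530). A change in 1 tissue was therefore not shown to differ from that in the other for any member tested.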

How the data were processed

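RNA was poly(A)-selected, made into directional libraries and sequenced as single-end reads of 75 bases, per the labels' protocols. STAR, DESeq2 and the mm10 build are named, without versions, per the submitters' processing notes. The tumour table the authors deposited holds raw counts per gene, as the whole values and unequal library sums show. The fat table the authors deposited holds FPKM values, a unit read from the file and its values, with no counts. Annotation came from GENCODE M21 (GRCm38), and promoter windows from RefSeq GRCm38.p6.

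From the counts, tumours were tested with edgeR 4.0.16 (TMM scaling, quasi-likelihood test, genes kept by filterByExpr at 10 counts). Fat was tested with limma 3.58.1 (trend) on log2(FPKM + 1) where the mean over 6 libraries reached 1 FPKM, and the tissue interaction with limma on log2(FPKM + 1) and log2(CPM + 1), in R 4.3.3. P-values were adjusted by Benjamini-Hochberg over all genes tested, with a threshold of 0.05. DESeq2 1.42.0, limma voom, other filters and pseudocounts, replicate blocks and left-out libraries were alternatives. The main fits, DESeq2 and limma voom were also run on simulated data, and the other alternatives were not. Tumour counts were simulated with a smaller spread than found here and without an outlying library. The simulation therefore says nothing about genes such as the members. Same-numbered tumours deviated together, with correlations of 0.18, 0.11 and 0.27 between KO and WT deviations, so the numbers were treated as pairs in an alternative. With 3 or 4 libraries a group, and the depth of the fat libraries unknown, only large differences could pass.

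The members and lists were chosen with earlier results of these data known. Genes named were the members, a fixed set of neuroendocrine, prostate, proliferation and cell type genes, the 10 genes nearest to the members' mean tumour profile by mean absolute difference, and each member's nearest member. Pcsk2, Myt1, Dbh, Prph, Calca, Npy, Tph1, Rcor1, Sin3a, Kdm1a, Hdac2, Cpe, Pam, Adipoq, Crisp1 and Svs4 were added after their values were seen. Some genes of the fixed set are not reported here.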

Additional observations from a re-analysis of the deposited data

Results flagged for a closer look

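Of 33 gene and group combinations examined among the 4 WT tumours, 20 had a library far from the other 3. Chance flags about 1 in 20 such groups, but these genes were chosen with their levels or earlier results known, so the count of 20 is a description and is not set against that rate. In 19 of the 20 that library was tumour WT 1, and the genes are not independent of each other. These are the members Chga (53.5 CPM in tumour WT 1), Chgb (290.4), Syp (138), Insm1 (154), Mycn (101), Celf3 (61.7), Stmn2 (39.1), Scg2 (282) and Scg3 (108 CPM). The others in the same library are Neurod1 (9.08 CPM), Pou3f2 (36.0), Srrm4 (38.4), Scg5 (50.6), Snap25 (147), Elavl4 (302), Uchl1 (231), Eno2, the neuronal enolase (53.8), the adhesion gene Ncam1 (402) and Ddc (33.8 CPM). The 20th is Pcsk1, where tumour WT 2 stood apart at 0.678 CPM and tumour WT 1 was not high.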

How the results depend on the processing

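No member passed the threshold in fat or in the tissue interaction under any alternative run, and in tumours only Chgb and Mycn did, with DESeq2 without its Cook's distance rule (2 members). In fat the single called gene of the table became 2 to 4 genes when 1 library was left out, 5 without both libraries numbered 2 and 74 with all 13 libraries in 1 fit. In tumours the 0 genes of edgeR became 772 with DESeq2 and 863 without its Cook's distance rule, and stayed at 0 when 1 library was left out. For the interaction, 0 genes became 0 to 221 when 1 library was left out, with 221 without fat KO 3 and 34 without tumour KO 2, and 3 with a replicate block within tissue. The cause of these shifts was not tested.

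Signs turned as follows, in log2 fold change over the libraries left out in turn: in tumours Chga -3.85 to 1.17, Chgb -7.33 to 0.44, Syp -4.39 to 0.54, Stmn2 -1.20 to 2.29 and Scg2 -7.09 to 0.65, positive only without tumour WT 1; in fat Syp -0.58 to 0.50; in the interaction Syp -0.36 to 1.62. Fat Syp was also -0.10 without both libraries numbered 2. Tumour Stmn2 was 0.97 with limma voom. With the replicate number as a block, tumour Stmn2 was 0.70 and the 8 tumour estimates lay between -5.36 and 0.70, and no call changed in either tissue. In fat the same-numbered libraries had correlations of -0.05, 0.15 and 0.15, so the samples share only a number there, and the block kept the count at 1 gene. The counts outside tumour WT 1, often under 30 per library, limit what can be said of the other tumours.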
